A study of Mus musculus with 25 samples.

Results

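The genes described here are 9 genes of MHC class I antigen presentation, H2-K1, H2-D1, B2m, Tap1, Tap2, Tapbp, Psmb8, Psmb9 and Nlrc5, in RNA sequencing of microglia sorted from mice that lack Bin1 in neurons. They were taken by symbol from the 43411 genes of the deposited table, and all 9 were among the 12908 genes with enough counts to be tested. The study asked how loss of Bin1 in forebrain excitatory neurons affects the surrounding microglia. CD11b+ CD45med cells were sorted by FACS from brains without cerebellum and olfactory bulbs, at 3 months of age. There was 1 library per mouse, and the libraries of 23 mice were analysed here. Homozygous animals, labelled Bin1flox/flox X Thy1-Cre+ or Homo-cKO (5 females and 5 males), carried 2 floxed Bin1 alleles and the Cre transgene. Heterozygous mice (Bin1flox/wt Thy1-Cre+, Het-cKO, 4 females and 3 males) carried 1 floxed allele and the transgene. WT littermates (Bin1flox/wt Thy1-Cre-, 2 females and 4 males) also carried 1 floxed allele but no Cre, so no group lacked a floxed allele. Cre was driven by the neuronal Thy1 promoter, so the deletion was not directed at the sorted cells. The parental lines named in the labels are B6.129S6-Bin1tm2Gcp/J and FVB/N-Tg(Thy1-cre)1Vln/J.

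MHC class I molecules show peptides from inside a cell to CD8+ T cells and to natural killer cell receptors. Proteins are cut by the proteasome, in which the interferon-inducible subunits Psmb8 and Psmb9 can replace Psmb5 and Psmb6. Peptides then enter the endoplasmic reticulum through the Tap1 and Tap2 transporter. Tapasin (Tapbp) holds the transporter and an empty class I molecule together while a peptide is loaded. The class I molecule is a heavy chain, here H2-K1 or H2-D1, paired with B2m (beta-2-microglobulin). Nlrc5 is a transactivator that raises class I transcription, in a complex with RFX factors, CREB and NF-Y on an upstream element called the SXY module. In the healthy brain microglia keep these genes at low to moderate levels, and interferons raise them.

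The upstream sequence of the genes on which Nlrc5 acts is shown first, because it is what H2-K1, H2-D1 and B2m share although B2m lies on another chromosome. Sequences are from RefSeq on GRCm38.p6, which held 7 of the 9 genes. No entry was used for Tap2 and Nlrc5. The stretches below run from the X2 site (TGACG) to the Y box (CCAAT, here on the reverse strand as ATTGG), both in capitals, 5′ to 3′ on the strand of the gene. H2-K1 is at chr17:34000359-34000388 on the minus strand, H2-D1 at chr17:35262993-35263022 and B2m at chr2:122147609-122147638, both on the plus strand. The H2-D1 stretch lies within an exon of another annotated H2-D1 transcript, and the other two lie outside annotated exons.
H2-K1: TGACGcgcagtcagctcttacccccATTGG
H2-D1: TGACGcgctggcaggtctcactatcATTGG
B2m: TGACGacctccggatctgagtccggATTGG
All 3 genes held the X2 site and the Y box with 20 bases between them, over 30 bases. The pair was searched at this distance only, so the equal span of the stretches was set by the search. H2-K1 and H2-D1 were identical at 23 of the 30 bases, and H2-K1 and B2m at 13. Searched on both strands in the 250 bases before each RefSeq start, this pair of motifs at this distance was found in 30 of 32851 windows (0.0913%). TGACG alone was in 17.8% of them and CCAAT in 33.8%. The ends of these 2 motifs can share a base, but did not in the stretches above. The B2m window also held the core of the interferon-stimulated response element (GAAA, any 2 bases, GAAA). This core was in 2.98% of all windows and in no other of the 7 members with a window. Only this exact form was searched, so elements that differ from it were not counted. The B2m bases, chr2:122147437-122147685 on the plus strand, are given with the 3 motifs in capitals.
B2m upstream: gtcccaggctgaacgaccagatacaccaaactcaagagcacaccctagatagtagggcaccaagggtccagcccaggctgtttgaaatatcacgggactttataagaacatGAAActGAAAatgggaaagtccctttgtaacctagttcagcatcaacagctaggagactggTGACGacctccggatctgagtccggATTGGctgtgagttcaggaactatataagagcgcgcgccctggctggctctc
Psmb9 and Tap1 are transcribed away from each other from starts 226 bases apart on chromosome 17. The window of each held TGACG and CCAAT at 1 place, but not at the distance above, and the 2 windows overlap. The Tapbp window held CCAAT at 2 places without TGACG, and the Psmb8 window held neither. A match describes these letters and is not evidence that a factor was bound.

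Between 10812877 and 16734740 counts per mouse were assigned to genes. The 10 microglial markers summed to 66830.0 to 94630.0 CPM (counts scaled to a common library size) in WT mice, with a median of 75990.0. The sum was 61910.0 to 82950.0 (median 73920.0) in heterozygous mice. In homozygous mice it was lower, at 58530.0 to 68680.0 (median 60650.0). The 10 lymphocyte markers summed to at most 1.53 CPM in every mouse. Bin1 was at 599.7 to 814 CPM in WT mice and 327.6 to 673 in homozygous mice (log2 fold change -0.60, SE 0.12, adjusted p = 0.0017, edgeR). Since Cre was neuronal, this level does not check the deletion. Animal numbers in the labels began with 2 in all WT and heterozygous mice and with 3 (6 mice) or 4 (4 mice) in homozygous mice, so genotype and number range cannot be told apart. Mice are named below by a letter for sex and a number in the order of the labels.

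Among the 10 homozygous libraries, 2 sets stood apart. H2-Q1, a class I heavy chain gene that is not a member, had 0 to 2 counts in F2, F3, M1, M2, M3 and M4, 22 to 45 in the other 4 homozygous mice, 17 to 50 in heterozygous mice and 26 to 48 in WT mice. These 6 mice included both sexes, and only M4 of them had a number beginning with 4. H2-Q2 (at most 2 counts), H2-Q4 (1.77 to 3.71 CPM against 14.7 to 17.1 in the other 4 mice) and H2-T10 (0.60 to 1.89 against 3.4 to 4.64 CPM) were low in the same 6 mice, while H2-T23 was high (198 to 270 against 128 to 152 CPM). In the class I region of chromosome 17, from Tapbp to H2-M3, 20 of 131 genes tested (15.3%) placed these 6 mice beyond all of the other 4 homozygous mice, compared with 1.19% of all genes tested. H2-Q1, by which the 6 mice were found, is 1 of the 20. The pattern reached beyond this region, to 38 of 670 genes tested on chromosome 17 as a whole. Among them was Ccr6, a chemokine receptor gene (1.5 to 2.56 CPM in the 6 mice against 123 to 140.4 in the other 4). Ccr6 was at 207.3 to 257.7 CPM in WT and 184.1 to 253.2 in heterozygous mice, so the other 4 were below both groups too. Leaving out the 6 mice thus does not bring this gene to the WT level. None of the 9 members placed the 6 mice beyond the other 4. Class I genes differ in sequence and number between inbred strains, and the reads were aligned to a C57BL/6J genome. Which haplotype each mouse carried was not tested. Separately, Fos was at 825 to 1459 CPM in F1, F2, M1 and M2, and at 0.07 to 7 CPM in the other 19 mice. 3 of these 4 mice are among the 6, and all 4 had numbers beginning with 3. Counts of members are given below with and without each set.

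**Figure D1:**
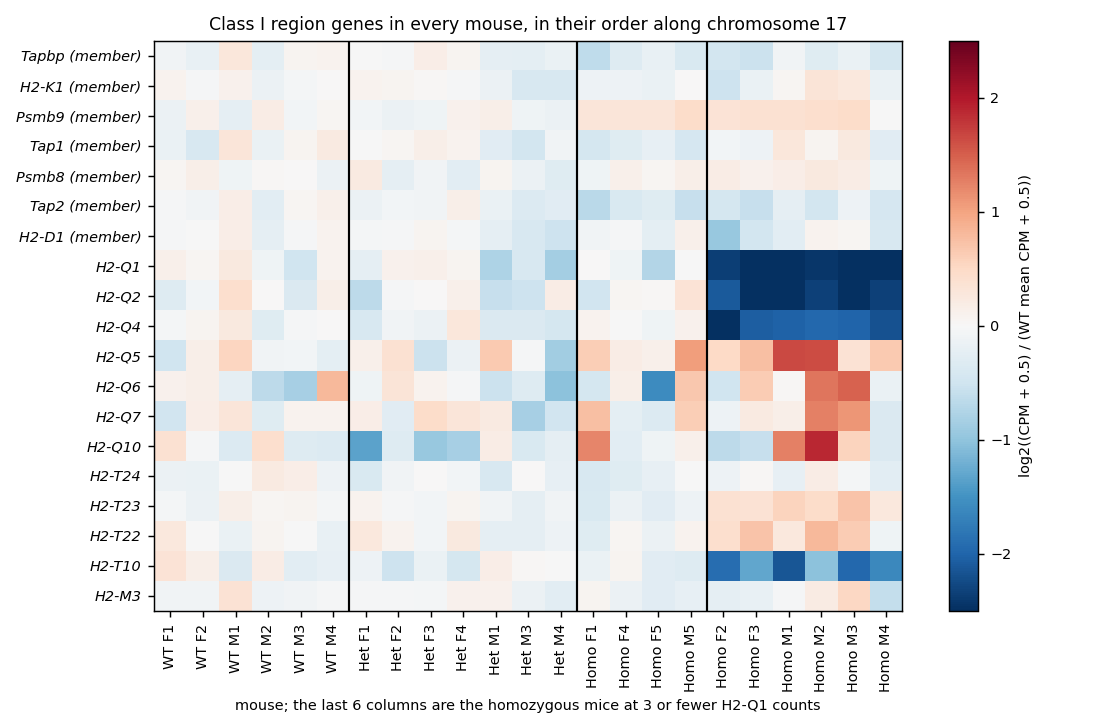
Tested class I heavy chain genes and members on chromosome 17 (rows, in chromosomal order) in each of the 23 mice (columns), as log2 of the CPM plus 0.5 relative to the WT mean plus 0.5. H2-Q1, H2-Q2, H2-Q4 and H2-T10 are blue in the last 6 columns, whereas none of the 7 members at the top separates those 6 mice from the other homozygous mice.

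Per kilobase of annotated exon, B2m had the highest level of the 9 genes in every genotype, with a WT mean of 1984 CPM per kb (SD 129, n = 6). The order in WT mice continued with H2-D1 (289, SD 25.7), Tapbp (193, SD 26.9), H2-K1 (98.4, SD 6.44), Tap2 (49.1, SD 5.27), Psmb8 (47.2, SD 3.58), Psmb9 (14.8, SD 1.68), Tap1 (11.8, SD 2.15) and Nlrc5 (0.17, SD 0.06). Tap2 and Psmb8 did not differ beyond their spread, nor did Psmb9 and Tap1. In homozygous mice (n = 10) the order of the first 4 was the same, whereas Psmb8 (50.6, SD 4.08) stood above Tap2 (36.9, SD 4.3) and Psmb9 (18.7, SD 1.63) was further from Tap1 (10.98, SD 2.02). Nlrc5 was thus a rare transcript, with 12 to 29 counts in WT mice, against 20130 to 24676 counts of B2m.

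**Figure D2:**
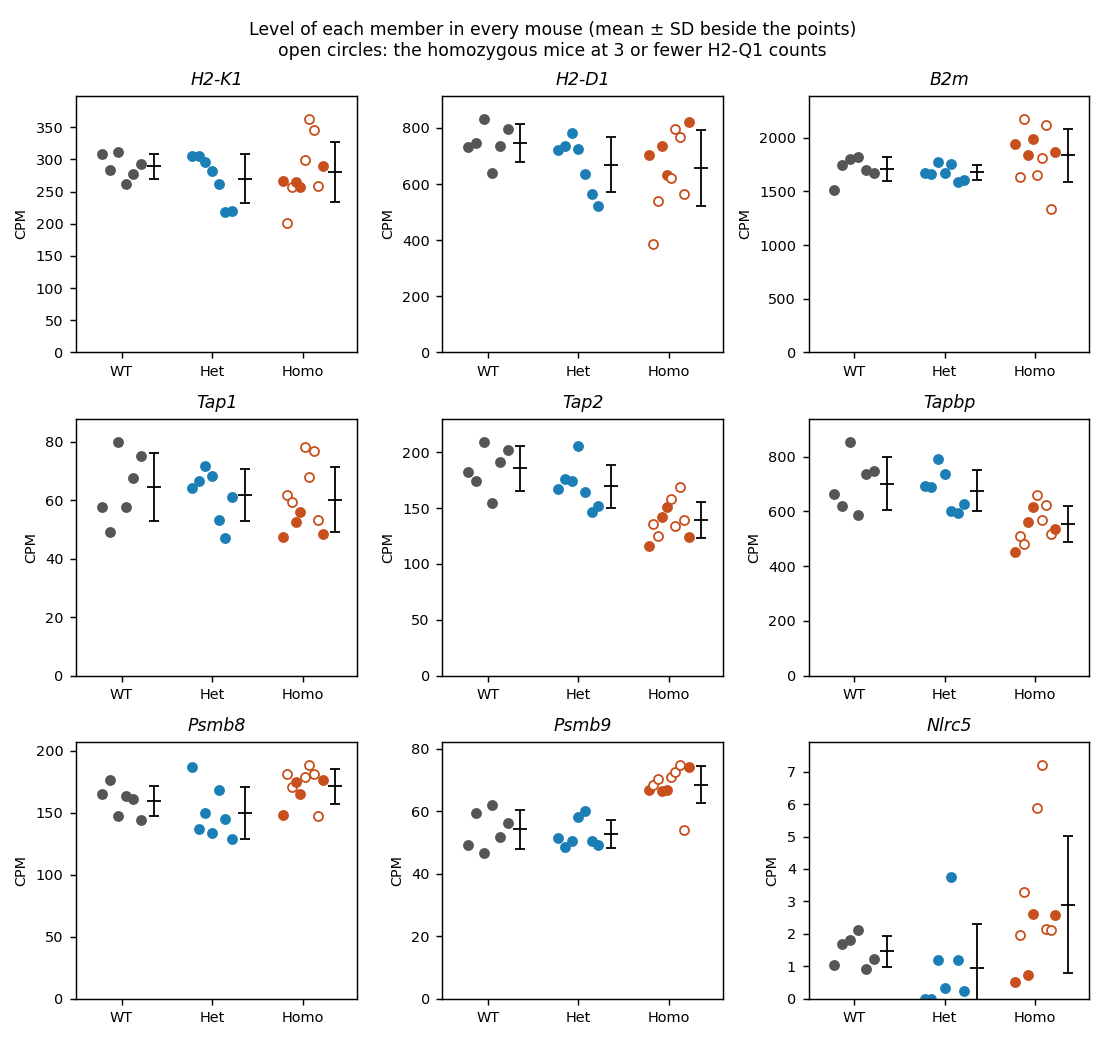
CPM of the 9 members (panels, each axis from 0) in WT (n = 6), heterozygous (n = 7) and homozygous (n = 10) mice, 1 point per mouse, with the mean and SD beside them. Psmb9 is higher in 9 of 10 homozygous mice than in any WT mouse, and Tap2 and Tapbp are lower in 8 and 7 of 10.

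Homozygous against WT mice addressed the effect of neuronal Bin1 loss on both alleles. The members did not change together. Psmb9 rose, Tap2 and Tapbp fell, and the other 6 did not pass the test. Thus 3 of 9 passed at an adjusted p below 0.05, 1 higher and 2 lower, where 12.7% of all genes tested passed, 5.66% higher and 7.09% lower. The median log2 fold change of the 9 was -0.04, beside 0.01 for all genes tested. None reached the study's criterion for a differentially expressed gene (DEG, also a fold change above 1.5), which 3.4% of genes tested did. DESeq2 and limma-voom also called 3 members and no DEG. Of all 12908 genes tested, 1944 passed in DESeq2 and 1685 in limma-voom, with 513 and 498 DEGs. In edgeR 3 members had an unadjusted p below 0.05, as did 3496 of all genes tested. The same 3 members passed without the 6 mice of low H2-Q1, where 6.18% of all genes tested did, and without the 4 mice of high Fos, where 8.34% did.

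Psmb9 (chr17:34181987-34187764, minus strand), the beta-1i subunit of the immunoproteasome, was at 46.5 CPM at the lowest, 54.0 at the median and 62.2 at the highest in WT mice. In homozygous mice it was at 53.9, 69.5 and 74.7 CPM. Thus 9 of 10 homozygous mice lay above every WT and every heterozygous mouse, and only M4 lay among them. The log2 fold change was 0.34 (SE 0.08), or 1.27-fold (adjusted p = 0.0046, edgeR). With the 4 homozygous mice whose numbers begin with 4 alone, which include M4, it was 0.27 (adjusted p = 0.13).

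Psmb8 (chr17:34197721-34201454, plus strand), the beta-5i subunit, was at 144, 162 and 176 CPM in WT mice and at 147, 176 and 188 CPM in homozygous mice, with 5 of 10 homozygous mice above every WT mouse. Its log2 fold change was 0.10 (SE 0.08, adjusted p = 0.45, edgeR), so it did not differ beyond the spread between mice.

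Tap2 (chr17:34203527-34216321, plus strand), a subunit of the peptide transporter, was at 154, 187 and 209 CPM (lowest, median and highest) in WT mice. It was at 116, 138 and 169 CPM in homozygous mice. Here 8 of 10 homozygous mice lay below every WT mouse, and the groups overlapped at M1 and M3. The log2 fold change was -0.41 (SE 0.08), or 0.75-fold (adjusted p = 0.0025, edgeR), the smallest p of the 9 genes in this comparison.

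Tap1 (chr17:34187553-34197225, plus strand), the other subunit of the transporter, was at 49.0, 62.7 and 79.8 CPM in WT mice and at 47.5, 57.7 and 78.1 CPM in homozygous mice. The groups overlapped almost entirely (log2 fold change -0.08, SE 0.12, adjusted p = 0.71, edgeR). In the homozygous mice numbered from 3 the difference turned to 0.04 and stayed within error. Tap1 and Psmb9 overlap in opposite directions, with 4.19% of the 50-base windows of Psmb9 found in Tap1 transcripts, and the library kit did not mark strand, so reads there cannot be told apart.

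Tapbp (chr17:33915899-33929292, plus strand), tapasin of the loading complex, was at 588, 700.5 and 853 CPM in WT mice and at 452, 550 and 660 CPM in homozygous mice. It lay below every WT mouse in 7 of 10 homozygous mice. The log2 fold change was -0.34 (SE 0.09), or 0.79-fold (adjusted p = 0.013, edgeR). Without WT mouse M1, the highest of all at 853 CPM, it was -0.28 (adjusted p = 0.055). Tapbp shares 20.3% of its windows with the transcript Gm19412, which was at 0.58 CPM or less in homozygous and 0.46 or less in WT mice, and the sum of both genes was 702 CPM (SD 97.6, n = 6) against 553 (SD 66.4, n = 10).

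The heavy chain H2-D1 (chr17:35262730-35267499, plus strand) was at 638, 740 and 832 CPM in WT mice and at 387, 668 and 820 CPM in homozygous mice, with 5 of 10 below every WT mouse. Its log2 fold change of -0.18 (SE 0.12, adjusted p = 0.36, edgeR) was within the spread. H2-K1 (chr17:33996017-34000347, minus strand) was at 262, 288 and 311 CPM in WT mice and spread on both sides of that range in homozygous mice, from 202 to 363 CPM (log2 fold change -0.04, SE 0.10, adjusted p = 0.84). B2m (chr2:122147686-122153083, plus strand) was at 1512, 1722 and 1815 CPM in WT mice and at 1339, 1850.0 and 2174 CPM in homozygous mice. Although 6 of 10 homozygous mice were above every WT mouse, M4 was below all of them, and the log2 fold change was 0.10 (SE 0.08, adjusted p = 0.46). As a description, the spread among homozygous mice was wider than among WT mice for these 3 genes. The coefficient of variation was 20.5% against 8.88% for H2-D1, 16.7% against 6.55% for H2-K1 and 13.5% against 6.5% for B2m. In heterozygous mice it was 14.5% for H2-D1, 14.1% for H2-K1 and 4.1% for B2m. The heavy chains thus also varied more among heterozygous than among WT mice. Counting can split reads between heavy chains, since 9.63% of H2-K1 and 12.8% of H2-D1 windows occur in transcripts of other genes, mostly H2-Q genes and each other.

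Nlrc5 (chr8:94434356-94527272, plus strand), the transactivator, was at 0.91, 1.45 and 2.13 CPM in WT mice and at 0.53, 2.37 and 7.2 CPM in homozygous mice. 6 homozygous mice were above every WT mouse and 2 were below. The log2 fold change was 1.02, but with an SE of 0.59 it did not pass (adjusted p = 0.28, edgeR). The highest values, 7.2 and 5.87 CPM, were in M2 and M1, which belong to both sets of libraries that stood apart. The 6 mice of low H2-Q1 were at 1.95 to 7.2 CPM and the other 4 homozygous mice at 0.53 to 2.61.

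**Figure D3:**
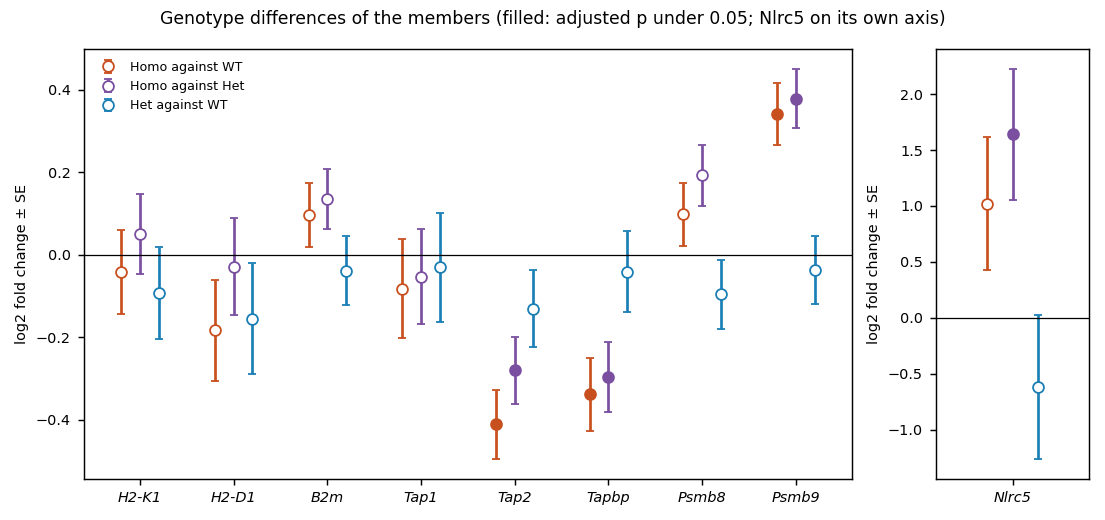
Log2 fold change of each member with its SE in the 3 comparisons (edgeR, all 23 mice in 1 fit), Nlrc5 on an axis of its own. Psmb9 lies above 0 and Tap2 and Tapbp below 0 against both other genotypes, and no heterozygous against WT value is filled.

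Homozygous against heterozygous mice compared mice that all carry Cre and differ in the second floxed allele. 4 of 9 members passed, 2 higher and 2 lower, where 22.7% of genes tested passed (11.1% higher and 11.7% lower). Psmb9 rose again (log2 fold change 0.38, SE 0.07, adjusted p = 0.00075, edgeR), from 48.7, 50.6 and 60.2 CPM in heterozygous mice. Tapbp and Tap2 fell (-0.30, SE 0.08, adjusted p = 0.014, and -0.28, SE 0.08, adjusted p = 0.015), and for each of them 7 of 10 homozygous mice lay below every heterozygous mouse. These 2 comparisons share the homozygous mice, so they are not independent of each other.

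Nlrc5 was higher in homozygous than in heterozygous mice (log2 fold change 1.64, SE 0.59, adjusted p = 0.045, edgeR) and was the only member called a DEG in any comparison, where 6.62% of genes tested were. In heterozygous mice it was at 0 CPM in F1 and F2, with 0 counts each, 0.33 at the median and 3.75 CPM in M1, so only 2 of 10 homozygous mice were above every heterozygous mouse. The call did not hold when any of 12 single mice was left out, heterozygous F1, F2, F4, M3 or M4, homozygous F2, F3, F5, M1 or M2, or WT M1 or M2, where the adjusted p reached 0.089. It was also lost without the 6 mice of low H2-Q1 (1.12, adjusted p = 0.37) and without the 4 mice of high Fos (1.38, adjusted p = 0.16). Without the first set Tapbp (-0.33, adjusted p = 0.053) and without the second Tap2 (-0.25, adjusted p = 0.062) did not pass either, so 2 of 9 members passed in each. Fewer genes passed in general in these fits, 12.1% of all genes tested without the first set and 14.9% without the second. B2m (0.13, SE 0.07, adjusted p = 0.18), Psmb8 (0.19, SE 0.07, adjusted p = 0.059), H2-K1, H2-D1 and Tap1 did not pass, and B2m passed without homozygous M4 (0.17, adjusted p = 0.039).

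Heterozygous against WT mice compared carriers of Cre with non-carriers, all with 1 floxed allele. No member passed in edgeR, DESeq2 or limma-voom, and none had an unadjusted p below 0.05 in edgeR. Of all genes tested, 0% passed and 0% were DEGs in edgeR, 998 had an unadjusted p below 0.05, and DESeq2 and limma-voom called 3 and 0 genes. The log2 fold changes of the 9 members ran from -0.62 (Nlrc5, SE 0.64) to -0.03 (Tap1, SE 0.13), with adjusted p of 0.77 or more. The medians were close for Psmb9 (50.6 against 54.0 CPM), B2m (1671 against 1722) and Tapbp (691 against 700.5 CPM), and the ranges of all 9 genes overlapped.

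No member passed a test for sex or number range. Between males and females the member of smallest p was Nlrc5 (log2 1.14 higher in males, SE 0.48, unadjusted p = 0.025, adjusted p = 0.84, edgeR), and 11 genes in all passed. The effect of homozygous deletion did not pass a test of its difference between the sexes for any member, nor for any gene tested. H2-K1 had the smallest unadjusted p of the members there (males minus females 0.37, SE 0.15, p = 0.026, adjusted p = 0.92, edgeR). Within males, Psmb9 (0.35), Tap2 (-0.38) and Tapbp (-0.33) passed at adjusted p of 0.038, 0.027 and 0.049. In all, 782 of 12908 genes tested passed there. Within females the values were 0.32, -0.41 and -0.29, with adjusted p of 0.24, 0.13 and 0.27 in a comparison with 2 WT females. Only 59 of the 12908 genes passed in females. Between homozygous mice numbered from 3 and from 4, no member passed, with the smallest unadjusted p for Tap1 (0.31 higher in the former, SE 0.14, p = 0.036, adjusted p = 0.45, edgeR). In that comparison 57 genes in all passed.

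Ratios between partners within a mouse do not depend on its total count. They are given per kilobase as a description, without a test. The ratio of Psmb9 to Psmb6, the subunit it replaces, was 0.199 (SD 0.026, n = 6) in WT, 0.206 (SD 0.026, n = 7) in heterozygous and 0.253 (SD 0.025, n = 10) in homozygous mice, and 8 of 10 homozygous mice and heterozygous F4 (0.263) lay above all WT mice. Psmb8 to Psmb5 was 0.593 (SD 0.051) in WT and 0.617 (SD 0.104) in homozygous mice, and Psmb10, the third inducible subunit, to Psmb7 was 3.8 (SD 0.31) in WT and 3.54 (SD 0.33) in homozygous mice, with overlapping ranges in both cases. Heterozygous mice had the highest ratio of Psmb10 to Psmb7, 4.19 (SD 0.19), and 6 of 7 lay above all WT mice. The ratio of Tap2 to Tap1 was 4.23 (SD 0.53) in WT and 3.41 (SD 0.41) in homozygous mice, below all WT mice in 7 of 10. It was 2.85 to 3.8 (median 3.11) in the 6 mice of low H2-Q1 and 3.54 to 3.93 (median 3.81) in the other 4.

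The ratio of H2-D1 to H2-K1 divided the homozygous mice. It was 2.94 (SD 0.16, n = 6) in WT mice and 2.83 (SD 0.13, n = 7) in heterozygous mice. It was 2.19 to 2.54 in the 6 homozygous mice of low H2-Q1, below every WT mouse, and 2.8 to 3.22 in the other 4. The libraries with few H2-Q1 counts thus had the lowest ratios, although neither heavy chain alone separated them from the other homozygous mice.

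**Figure D4:**
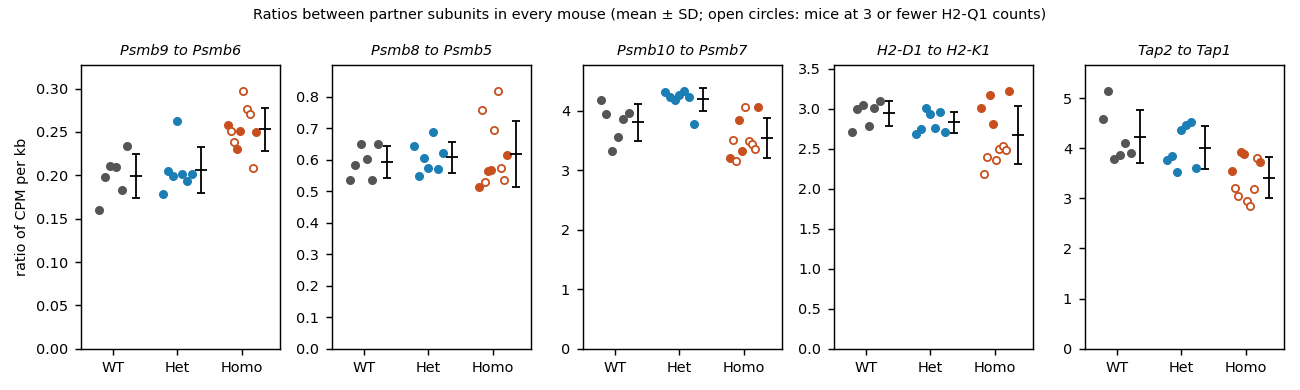
Ratios of CPM per kilobase between partner genes in every mouse, with the mean and SD per genotype and axes from 0. Open circles are the 6 homozygous mice of low H2-Q1, which lie lowest for H2-D1 to H2-K1 (2.19 to 2.54) and are mixed with the others for Psmb9 to Psmb6.

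The rest of the pathway was described with lists of genes that are not members. Of 28 other class I heavy chain genes and relatives, 15 were tested, and H2-Q8, H2-Q9 and H2-T9 were not matched by symbol. Between homozygous and WT mice H2-Q5 rose (log2 fold change 1.51, adjusted p = 0.048, 0.15 to 0.82 CPM in WT mice) and H2-T10 fell (-1.07, adjusted p = 0.044), and both were DEGs. H2-T10 was at 3.3 to 5.71 CPM in WT mice, and without the 6 mice of low H2-Q1 its change was -0.19 (adjusted p = 0.73) and without the 4 mice of high Fos it was -0.87 (adjusted p = 0.13). None of the 14 genes tested in either of these fits passed, where 6.18% and 8.34% of all genes tested did. H2-Q5 was too low to be tested in them. Hfe, which pairs with B2m and controls iron uptake, had the highest CPM of the list, 239.7 (SD 18.0, n = 6) in WT and 224.7 in homozygous mice, and did not pass (log2 fold change -0.10, adjusted p = 0.38).

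Among 16 genes of peptide supply and loading, 1 rose and 3 fell between homozygous and WT mice, and the median log2 fold change was -0.14. Psme3, a proteasome activator subunit of the nucleus, rose (0.32, adjusted p = 0.0039), from 82.3 to 104 CPM in WT mice to 102 to 131 CPM in homozygous mice. Calr, the calreticulin chaperone of the loading complex, fell (-0.32, adjusted p = 0.011). So did Uggt1 (-0.47, adjusted p = 0.0056), which checks glycoprotein folding, and Ganab (-0.36, adjusted p = 0.035), which trims glycans in the same quality control. Hspa5, a general chaperone of the endoplasmic reticulum and the gene of highest CPM in the list over all mice, had a change of -0.30 that did not pass (adjusted p = 0.074). Without the 6 mice of low H2-Q1 1 gene of the list rose and 4 fell (6.18% of all genes tested passed). Without the 4 mice of high Fos 2 rose and 3 fell (8.34% of all genes tested passed). None of 14 subunits of the constitutive 20S proteasome passed in edgeR, 2 had an unadjusted p below 0.05, and the median was 0.03. The smallest p belonged to Psmb3 (-0.17, adjusted p = 0.075) and the highest CPM to Psma1 (0.03, adjusted p = 0.83).

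Of 23 tested regulators of class I genes, 3 rose and 1 fell between homozygous and WT mice, with a median of 0.05. Ifngr1, the ligand-binding chain of the interferon gamma receptor, had the highest CPM and the smallest p of the list and fell by 0.50 on the log2 scale (SE 0.07, adjusted p = 9e-05). It was at 1710.0 to 2260.0 CPM in WT mice and at 1230.0 to 1491 CPM in homozygous mice, without overlap. Rfx5 (0.30, adjusted p = 0.037) and Creb1 (0.32, adjusted p = 0.005), which bind the SXY module, and Irf9 (0.25, adjusted p = 0.026), which carries interferon signals to the response element, rose. Without the 6 mice of low H2-Q1, 1 rose and 1 fell (6.18% of all genes tested passed). Without the 4 mice of high Fos none rose and 1 fell (8.34% of all genes tested passed). Ifngr1 fell in both (-0.56, adjusted p = 0.0029, and -0.52, adjusted p = 0.00072).

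Of 10 genes of the class II pathway, which presents peptides to CD4+ T cells, 6 rose and none fell between homozygous and WT mice, 5 of them DEGs, and the median was 0.79. H2-Eb1 (log2 fold change 2.23, adjusted p = 0.00083), H2-Aa (1.82, adjusted p = 0.00094) and H2-Ab1 (1.27, adjusted p = 0.0012) encode class II chains, Cd74 (1.02, adjusted p = 0.008) is the invariant chain, and Ciita (2.27, adjusted p = 0.049) is the class II counterpart of Nlrc5. H2-Eb1 was at 2.2 to 11.8 CPM in WT mice and at 15.3 to 52.7 CPM in homozygous mice, without overlap. H2-DMa also rose (0.56, adjusted p = 0.034), but only its values in the 6 mice of low H2-Q1 (214.2 to 284.3 CPM) exceeded the WT range of 117 to 152, and without them it was -0.15 (adjusted p = 0.47). H2-DMb1, of the highest CPM in the list over all mice, did not pass (0.05, adjusted p = 0.83). 4 genes rose without those 6 mice and 5 without the 4 mice of high Fos, where 6.18% and 8.34% of all genes tested passed. The median of the list was 0.59 and 0.81 in these fits. The difference between class I and class II genes was not itself tested.

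Of 19 tested interferon-stimulated genes, 8 rose and none fell between homozygous and WT mice, with a median log2 fold change of 0.48. DEGs were Ifitm3 (0.97, adjusted p = 0.0073), Oas1a (0.91, adjusted p = 0.026), Ifit2 (0.88, adjusted p = 0.026), Ifit3 (0.72, adjusted p = 0.023), Irf7 (0.68, adjusted p = 0.048) and Rtp4 (0.61, adjusted p = 0.0046), all of low level, from 2.996 (Oas1a) to 10.95 CPM (Rtp4) on average in WT mice. Gbp7, of the highest CPM over all mice, did not pass (0.11, adjusted p = 0.61). Without the 6 mice of low H2-Q1, 2 rose, and without the 4 mice of high Fos, 4 rose. In these fits 6.18% and 8.34% of all genes tested passed, against 12.7% with every mouse. The median of the list was 0.40 and 0.38 in them. Between homozygous and heterozygous mice the counts of genes that rose and fell were 1 and 0 of the other heavy chains, 3 and 4 of peptide supply and loading, 4 and 0 of the 20S proteasome, 5 and 1 of the regulators, 5 and 0 of class II and 8 and 0 of the interferon-stimulated genes. Between heterozygous and WT mice none of these lists had a gene that passed in edgeR.

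**Figure D5:**
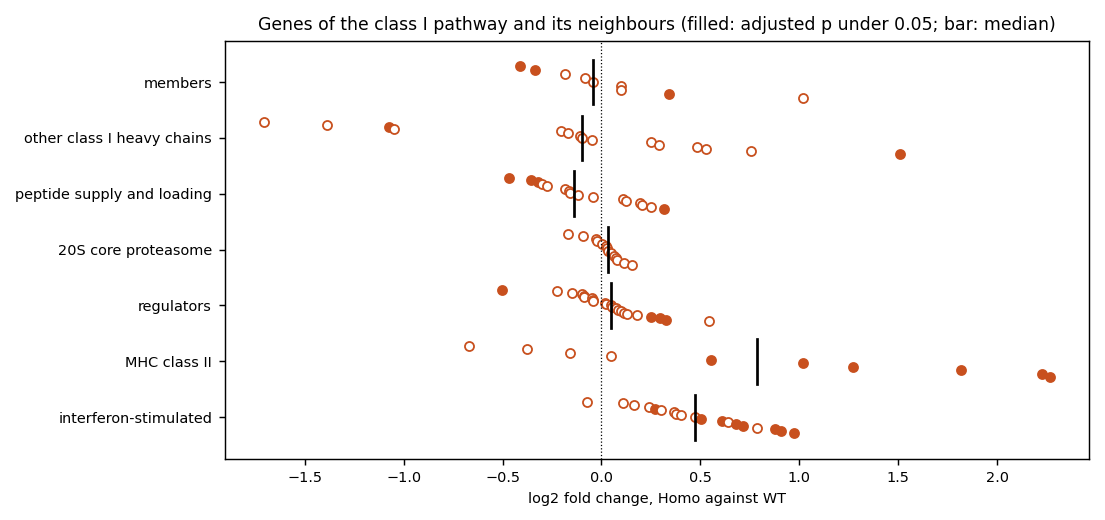
Log2 fold changes of homozygous against WT mice for the tested genes of each list (1 point per gene, filled where the adjusted p was below 0.05, bar at the median). Class II and interferon-stimulated genes lie mostly to the right of 0 (medians 0.79 and 0.48), and the members around it (-0.04).

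Markers of other cells moved with genotype and their part in the results above was not tested. In bulk libraries, fewer cells of a type and less RNA per cell cannot be told apart. The sum of 6 matched monocyte and neutrophil markers was 4.63 to 20.9 CPM in WT mice and 12.4 to 58.7 in homozygous mice. Of 5 tested, 4 had a log2 fold change above 0, with a median of 2.09 over the 5, but only Ccr2 passed. Ccr2 (log2 fold change 1.28, adjusted p = 0.00081, edgeR) was at 3.68 to 5.7 CPM in WT mice and 7.85 to 20.3 in homozygous mice. Border macrophage (7 genes, 6.9 to 31.6 against 5.94 to 38.2 CPM) and dendritic cell markers (6 genes, 3.31 to 11.8 against 2.44 to 10.8 CPM) overlapped between these groups. The 10 lymphocyte markers summed to 1.05 CPM or less in WT and 1.46 or less in homozygous mice. Endothelial markers summed to 37.5 to 71.1 CPM in WT and 26.9 to 53.1 in homozygous mice. Neuronal markers summed to 5.94 to 31.2 CPM in WT and 1.38 to 5.43 in homozygous mice, and Snap25 (log2 fold change -2.52), Nrgn (-2.76) and Gad1 (-3.13) were DEGs that fell. The astrocyte markers summed to 5.32 to 17.8 CPM in WT and 0.94 to 9.33 in homozygous mice, and the oligodendrocyte markers to 82.6 to 144 and 64.3 to 96.7, with 1 DEG in each, Aldoc (-1.61) and Mobp (-1.69), which fell. Of 10 microglial markers 5 fell, among them Cx3cr1 of the smallest p (-0.51, adjusted p = 0.00018). Immediate-early genes, which rise when cells are handled or stimulated, summed to 444 to 609 CPM in WT and 578 to 13070.0 in homozygous mice, and 9 of 10 tested rose, with a median log2 fold change of 3.36. All 9 were DEGs, namely Fos (8.75), Egr1 (7.02), Dusp1 (5.89), Ier2 (4.45), Hspa1a (3.48), Jun (3.23), Zfp36 (2.13), Junb (2.12) and Atf3 (0.94), at adjusted p of 0.046 or less. Without the 4 mice of high Fos 5 of 10 rose and the median was 0.61, where 8.34% of all genes tested passed.

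Beyond genotype and sex, members were compared by the correlation of their residual log2 CPM over the 23 mice, as a description, since genes of 1 library share its depth and quality. Tap2 and Tapbp (r = 0.86), Tap1 and Tapbp (r = 0.80) and Tap1 and Tap2 (r = 0.75) varied together, and so did H2-K1 and H2-D1 (r = 0.84), while B2m and Tapbp had r = 0.08. The genes outside the list most like the mean of the 8 members other than Nlrc5 were Cd68 (r = 0.82), a lysosomal protein, Lgals3bp (0.79), Abhd12 (0.78), Ifnar2 (0.77), a chain of the type I interferon receptor, H2-M3 (0.75), a class I heavy chain, Tmem206 (0.75), Mmp14 (0.74) and Ergic3 (0.74). Nlrc5 had r = 0.14 with that mean. Within each genotype, Nlrc5 was compared with each of the 8 other members, which made 24 relations. None passed after adjustment for either coefficient (smallest adjusted p = 0.71, permutation test). The smallest unadjusted p was for Tap1 in homozygous mice (Pearson r = 0.65, permutation p = 0.042, Spearman rho = 0.62, permutation p = 0.059, n = 10), and r was 0.50 without the 2 mice of Nlrc5 farthest from the median.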

How the data were processed

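Microglial mRNA was amplified with the SMARTer Ultra Low Input kit and made into Nextera XT libraries, which keep no strand information. Single-end reads of 50 bases were aligned by the authors to mm10 with OmicSoft OSA4 and quantified with RSEM on the Ensembl.R84 gene model, and the deposited values are expected counts per gene and mouse (82.2% whole). The version of RSEM and the treatment of multimapping reads were not given in the sources used here. 2 of 25 labelled samples, a WT female and a heterozygous male, had no column and were not analysed here. The study reports removing 2 samples of these groups for few uniquely mapped reads and high duplication. Identifiers were paired with symbols for 42929 of 43411 genes.

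Expected counts were rounded. Genes were filtered with filterByExpr, scaled by TMM and tested with edgeR 4.0.16 (R 4.3.3) by quasi-likelihood with genotype and sex over all 23 mice, with Benjamini-Hochberg adjustment over 12908 genes. DESeq2 1.42.0, limma 3.58.1 (voom), other scalings, filters and subsets were alternatives. The genotype comparisons with edgeR, DESeq2 and limma-voom were tried on simulated counts with planted changes, and the other steps were not. Mice are the replicates, so p-values set a difference between groups against the spread between mice. They cannot separate genotype from number range. CPM are given without pseudocount, and log2 CPM used for correlations had a prior count of 2. Shared windows are 50-base stretches of annotated transcripts found in another gene. The members and lists were chosen with earlier results of these data known. Named were all members, the DEGs of each list, its gene of highest mean CPM and that of smallest p, except 1 microglial marker that is not reported here. For lists of other cell types and of immediate-early genes, sums, counts and DEGs are given. Other called genes (Calr, Uggt1, Ganab, Creb1, Rfx5, Irf9 and H2-DMa) were chosen after their values were seen, as was leaving out the mice of low H2-Q1 or high Fos.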

Additional observations from a re-analysis of the deposited data

Results flagged for a closer look

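Of 27 sets of values (9 members in 3 genotypes), 2 held a mouse far from the others of its genotype, and chance alone gives such a mouse in about 1 of 20 sets. Psmb9 in homozygous mouse M4 was at 53.93 CPM, below the 66.6 to 74.7 CPM of the other 9 homozygous mice. Nlrc5 in heterozygous mouse M1 was at 3.748 CPM (44 counts), above the 0 to 1.2 CPM of the other 6 heterozygous mice.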

How the results depend on the processing

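The members were refitted under 13 alternatives and without each of the 23 mice. Of 936 alternative log2 fold changes of members, 889 kept their direction and their side of the threshold. Between homozygous and WT mice, Psmb9 ran from 0.27 to 0.39 (adjusted p 0.00044 to 0.13), Tap2 from -0.52 to -0.40 (0.00014 to 0.012) and Tapbp from -0.40 to -0.32 (0.0035 to 0.049). Psmb9 did not pass with the mice numbered from 4 alone (0.27), where 806 of 13090 genes did. Without 1 mouse the members passing numbered 2 to 3 (1060 to 1729 of all genes passed, against 1645 with every mouse). Between homozygous and heterozygous mice they numbered 3 to 6 without 1 mouse (2284 to 3024 of all genes passed, against 2936 with every mouse), 1 with the mice numbered from 4 alone (1433 of 13090), where Tap2 (-0.27), Tapbp (-0.27) and Nlrc5 (1.202) did not pass, 2 without the mice of low H2-Q1 (1581 of 13094) and 2 without those of high Fos (1898 of 12735). DEGs there numbered 0 to 1 without 1 mouse and 0 with no sex term, with the groups compared alone, with the mice numbered from 4 alone and without either set of mice. Psmb8 passed with DESeq2 (0.19, adjusted p = 0.035) and limma-voom (0.20, adjusted p = 0.045), and in 4 of the fits without 1 mouse. Directions turned for Tap1 with the mice numbered from 3 alone (0.038 against WT and 0.057 against heterozygous mice), and against heterozygous mice for H2-D1 with the mice numbered from 4 alone (0.062), without low H2-Q1 (0.10) and without high Fos (0.029), and for H2-K1 without low H2-Q1 (-0.015). Without 1 mouse, H2-D1 ran from -0.093 to 0.050 and H2-K1 from -0.0084 to 0.10 there, and between heterozygous and WT mice Tap1 ran from -0.12 to 0.054, Tapbp from -0.089 to 0.015 and Psmb9 from -0.081 to 0.00096. The cause of these changes was not tested. No paired analysis was possible because the labels give no replicate number that groups share. Nlrc5 had 0 to 99 counts per mouse, the fewest of the members.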
